A study of Mus musculus with 6 samples.

Results

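The vesicular neurotransmitter transporters are the proteins that load transmitter into synaptic vesicles, and 6 of their genes were followed here in RNA purified with tagged ribosomes from mouse striatum. The genes were Slc17a7, Slc17a6 and Slc17a8 for glutamate, Slc32a1 for GABA and glycine, Slc18a3 for acetylcholine and Slc18a2 for monoamines. They were chosen by symbol, each matched 1 Ensembl identifier, and they are 6 of the 18732 genes in the authors' deposited table. All 6 had an adjusted p, as did 17279 genes of that table in all.

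The mice carried Cre recombinase tied to Oprm1, which encodes the mu opioid receptor, and the Cre-dependent allele RosaLSL-GFP-L10a, which puts a green fluorescent tag on a ribosomal protein. Sample labels write the genotype as Oprm1Cre/+;RosaLSL-GFP-L10a and the series text writes Oprm1Cre/Cre, which was not resolved, and all libraries of both groups share it. Of the 6 libraries, 3 came from morphine-treated and 3 from saline-treated mice, and each pooled both striatal hemispheres of 2 brains. Morphine was given under the skin at 20, 40, 60 and 100 mg/kg, in 2 injections a day for 5 days, and tissue was taken 24 h after the last dose. Their age is not stated in the labels. The Cre allele decides which cells carry the tag, and RNA of untagged cells can be carried along in such a purification. In bulk RNA, fewer cells of a type and less RNA per cell cannot be told apart.

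The deposited table holds 1 comparison and no value per library, so neither the spread between libraries nor their depth could be shown, and the authors' standard errors (SE) are the only measure of precision. The table does not name the reference group or the libraries fitted. A sheet named Up lists the positive fold changes, which are therefore taken as increases under morphine, and every direction given would turn if the fit ran the other way. A gene was called at the authors' Benjamini-Hochberg adjusted Wald p below 0.05 (DESeq2), and 11.8% of all tested genes were called higher and 2.01% lower. For Oprm1 itself the authors' deposited table gave a mean normalised count of 658 and a log2 difference of 0.29 with an SE of 0.18 and an adjusted p of 0.350.

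Each vesicular transporter is driven by the electrochemical gradient that the vesicular proton pump builds, and a neuron's set of these transporters is the usual sign of which transmitter it releases. In the striatum, projection neurons and most interneurons release GABA through the product of Slc32a1, VGAT. Cholinergic interneurons use the product of Slc18a3, VAChT, and many of them also carry VGLUT3, the product of Slc17a8. VGLUT1 and VGLUT2, from Slc17a7 and Slc17a6, mark the glutamate axons that arrive from cortex and thalamus, and VMAT2, from Slc18a2, marks dopamine and serotonin axons, whose cell bodies lie outside the striatum.

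Slc18a3 (ENSMUSG00000100241) is a gene of 1 exon, 32462438 to 32464850 on the minus strand of chromosome 14 in GRCm38 (GENCODE M21), and it lies whole within the first intron of the annotated Chat transcripts that begin upstream of it. Chat encodes the enzyme that makes acetylcholine, so 1 locus holds both genes of the cholinergic neuron, and the pair is shown because their values parted in this comparison. The 250 bases before the RefSeq start of each gene (GRCm38.p6, minus strand, 5′ to 3′), at chr14:32464851-32465100 for Slc18a3 and chr14:32465910-32466159 for Chat, are separate windows, and capitals mark the GC box, GGGCGG or its reverse complement CCGCCC.
Slc18a3: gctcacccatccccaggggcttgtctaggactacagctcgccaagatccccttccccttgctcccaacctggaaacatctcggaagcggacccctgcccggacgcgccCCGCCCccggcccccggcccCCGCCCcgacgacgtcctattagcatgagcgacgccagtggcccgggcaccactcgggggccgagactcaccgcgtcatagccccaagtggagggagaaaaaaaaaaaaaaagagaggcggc
Chat: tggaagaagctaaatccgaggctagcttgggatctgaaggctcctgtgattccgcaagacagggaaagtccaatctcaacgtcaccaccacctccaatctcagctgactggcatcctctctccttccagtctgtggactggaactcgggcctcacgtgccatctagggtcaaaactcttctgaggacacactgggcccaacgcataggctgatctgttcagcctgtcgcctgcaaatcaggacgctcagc
The window of Slc18a3 holds 2 GC boxes and that of Chat holds 0, and 32.7% of all 32851 windows of this length hold at least 1 on either strand. Neither window holds the cAMP response element TGACGTCA (1.55% of windows) or the TATA box TATAAA (12.4%). A match is a description of the letters and not of a bound factor. GC boxes in the windows of the other transporters numbered 3 for Slc17a7, 2 for Slc18a2, and 0 for Slc32a1 and each start of Slc17a8. Slc17a6 has 1 at its first start and 0 at its second. Whether GC boxes went with the fold changes was not tested.

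The other genes lie apart from each other. In GRCm38, Slc17a7 (ENSMUSG00000070570) spans 45163949 to 45176142 and Slc17a6 (ENSMUSG00000030500) spans 51622006 to 51671119, both on the plus strand of chromosome 7. Slc17a8 (ENSMUSG00000019935) spans 89574020 to 89621253 on the minus strand of chromosome 10, Slc32a1 (ENSMUSG00000037771) 158610767 to 158615748 on the plus strand of chromosome 2, and Slc18a2 (ENSMUSG00000025094) 59260896 to 59296012 on the plus strand of chromosome 19. The 3 glutamate transporters share 72.6% to 77.5% of aligned residues by translation of the longest coding sequence, and Slc18a3 and Slc18a2 share 38.9%. Slc32a1 shares 24.9% of its exon bases with Gm14205, annotated on the opposite strand, and the use of strand in counting is not given in the sources used here, so their reads cannot be told apart there. Gm14205 had a mean of 19.3 in the authors' deposited table, against 9567 for Slc32a1.

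By level, the RNA held 2 abundant vesicular transporters, 3 at moderate levels and 1 close to the floor. Levels are the authors' mean normalised counts over the libraries they fitted, divided by the length of all annotated exons, and the table gives no error for them. Slc17a7 was highest at 4945 normalised counts per kb of exon (mean normalised count 26665 in the authors' deposited table, above 98.0% of genes). Slc32a1 followed at 3420.5 per kb (mean 9567 in the authors' deposited table), 1.45-fold below Slc17a7. Per kb of coding sequence the distance was wider, with Slc17a7 at 15168 and Slc32a1 at 6063 normalised counts per kb. Slc17a8 stood at 152 per kb of exon, from a mean of 719 in the authors' deposited table. It was 22.5-fold below Slc32a1 per kb of exon and 15.2-fold below it per kb of coding sequence.

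Slc18a3 reached 139 normalised counts per kb of exon and Slc17a6 reached 96.6, from means of 337 and 521 in the authors' deposited table. Per kb of exon, the levels of Slc17a8, Slc18a3 and Slc17a6 lay within 1.58-fold of each other. With no spread per library their order was not tested. Per kb of coding sequence, Slc17a6 came before Slc18a3, and the level of Slc18a3 was 0.53 times that of Slc17a8. Slc18a2 was last at 2.33 per kb of exon, 41.5-fold below Slc17a6 per kb. Its mean of 12.2 in the authors' deposited table lay just above 10.9, the highest mean among the 1453 genes without an adjusted p.

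**Figure D1:**
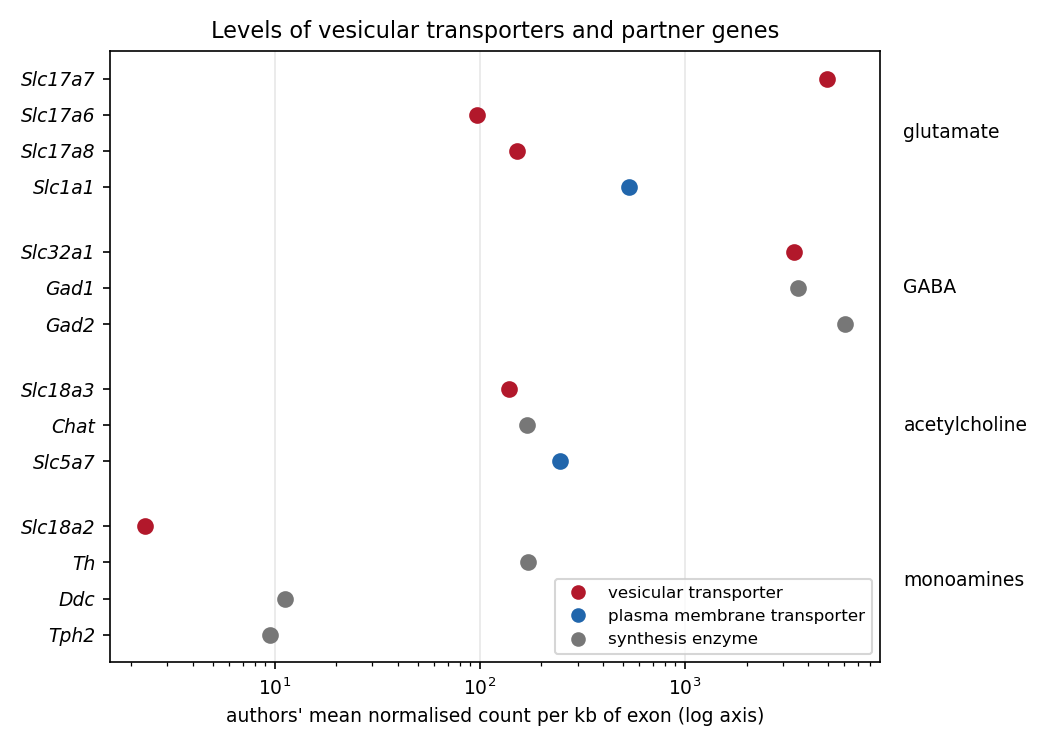
Level of each vesicular transporter (red) and of synthesis enzymes (grey) and plasma membrane transporters (blue) of the same transmitter, as the authors' mean normalised count per kb of exon on a log axis; each point is 1 gene over the libraries the authors fitted, and no error is available. Slc17a7 and Slc32a1 stand at 4945 and 3420.5 per kb, and Slc18a2 at 2.33.

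After morphine, 5 of the 6 vesicular transporters rose and none fell, against 11.8% of all tested genes called higher and 44.1% of those predicted to encode membrane or secreted proteins. The count was 1 with Bonferroni adjustment, which Slc32a1 passed, and 0 once the median of that protein class was subtracted. The 5 that rose lay between 1.63-fold and 2.05-fold, and Slc18a2 did not pass the threshold. In the authors' deposited table the acetylcholine transporter gene Slc18a3 had the highest log2 fold change, 1.04 (SE 0.23, adjusted p = 0.000135), and its 95% interval ran from 0.59 to 1.49. The cortical-type glutamate transporter gene Slc17a7 rose by 0.81 on the log2 scale of the authors' deposited table (SE 0.17, 95% interval 0.47 to 1.15, adjusted p = 7.03e-05). Its SE was 1.39 times the median SE of the 200 genes nearest to it in mean, the highest such ratio of the 6 genes.

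Slc17a8, whose product VGLUT3 is carried by cholinergic interneurons, had a log2 fold change of 0.76 in the authors' deposited table (SE 0.21, 95% interval 0.36 to 1.17, adjusted p = 0.00277). The GABA transporter gene Slc32a1 rose by 0.74 (SE 0.14, 95% interval 0.46 to 1.01), which gave the smallest adjusted p of the 6 in the authors' deposited table, 5.46e-06. For Slc17a6, of the thalamic type, the authors' deposited table gave 0.70 (SE 0.21, 95% interval 0.29 to 1.11, adjusted p = 0.00798).

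The monoamine transporter gene Slc18a2 stood at 0.01 on the log2 scale of the authors' deposited table (SE 0.89), and its adjusted p was 0.998. Its 95% interval reached from -1.75 to 1.76, or from 0.298-fold to 3.39-fold. At that SE only a log2 change of at least 2.42 would have passed, so a change of the size of the other 5 genes was not detectable at this level.

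The 5 transporters that rose could not be ranked by their change. Over the 15 pairs among the 6 genes, every 95% interval of the difference in log2 fold change held 0, with the SEs taken as independent although the genes share libraries. The widest gap among the 5, between Slc18a3 and Slc17a6, was 0.34 on the log2 scale (95% interval of Slc17a6 minus Slc18a3, -0.95 to 0.27). Levels that differed by 51.2-fold per kb of exon, as between Slc17a7 and Slc17a6, went with log2 fold changes only 0.11 apart (95% interval -0.42 to 0.64). The intervals leave room for differences of that size in either direction.

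**Figure D2:**
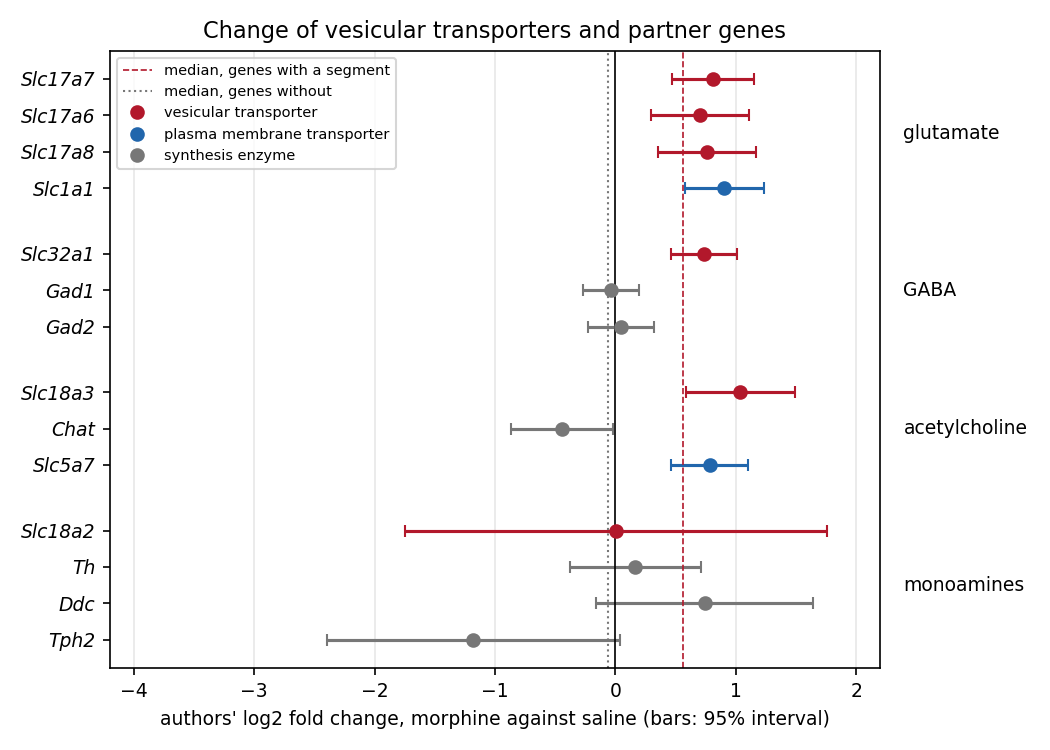
The authors' log2 fold change of morphine against saline for the vesicular transporters (red), synthesis enzymes (grey) and plasma membrane transporters (blue) of each transmitter; bars are 95% intervals from the authors' SEs. Slc17a7, Slc17a6, Slc17a8, Slc32a1 and Slc18a3 lie between 0.70 and 1.04, Gad1, Gad2 and Chat between -0.44 and 0.05, and the bar of Slc18a2 runs from -1.75 to 1.76. The dashed line is the median of genes predicted to encode membrane or secreted proteins, 0.56. The dotted line is the median of the other coding genes, -0.06, to which Gad1, Gad2 and Chat belong.

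The enzymes that make GABA and acetylcholine were not called, unlike the transporters that store these transmitters. Slc32a1 and Slc18a3 are predicted to encode membrane or secreted proteins, and Gad1, Gad2 and Chat are not. Over all tested coding genes, the median log2 fold change was 0.56 for genes so predicted and -0.06 for the others. Gad1 and Gad2, the glutamate decarboxylase genes that make GABA, were at 3561 and 6059 normalised counts per kb of exon, beside 3420.5 for Slc32a1. The ratios to Slc32a1 were 1.04 and 1.77 per kb of exon, but 2.52 and 3.34 per kb of coding sequence. Their log2 fold changes in the authors' deposited table were -0.04 (SE 0.12, adjusted p = 0.931) and 0.05 (SE 0.14, adjusted p = 0.920). Slc32a1 exceeded Gad1 by 0.77 in log2 fold change (95% interval 0.41 to 1.13) and Gad2 by 0.69 (0.30 to 1.08). Of 7 tested genes of GABA and glycine synthesis, uptake and breakdown, 3 rose and 0 fell, among them the uptake transporter genes Slc6a9 (1.32, SE 0.18) and Slc6a11 (1.05, SE 0.19) in the authors' deposited table. The 3 are those of the 7 predicted to encode membrane or secreted proteins, and 0 of the other 4 rose.

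Beside the glutamate transporters of vesicles, of 12 genes of glutamate supply, 6 rose and 0 fell, against 11.8% of all tested genes called higher. Their median log2 fold change was 0.44 against -0.01 over all tested genes. The 7 predicted to encode membrane or secreted proteins had a median of 0.66 and 5 rose, against 44.1% of all tested genes so predicted. The other 5 had a median of -0.06 and 1 rose. The highest called in the authors' deposited table were the glutamate transporter genes Slc1a3 (2.28, SE 0.22) and Slc1a6 (1.17, SE 0.38), and the lowest called were Slc1a2 (0.66, SE 0.17) and the glutamine transporter gene Slc38a2 (0.53, SE 0.15). Slc1a3 and Slc1a2 are best known from astrocytes.

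Chat, which encodes the enzyme that makes acetylcholine, lies in the same locus as Slc18a3 and is made in the same neurons. Its log2 fold change in the authors' deposited table was -0.44 (SE 0.22, adjusted p = 0.197), with an unadjusted p of 0.0415. Slc18a3 exceeded Chat by 1.48 on the log2 scale (95% interval 0.86 to 2.10, SEs taken as independent). Slc5a7, the gene of the choline transporter that feeds acetylcholine synthesis, had 0.78 in the authors' deposited table (SE 0.16, adjusted p = 4.32e-05), 0.26 below Slc18a3 in log2 fold change with an interval that held 0 (-0.30 to 0.81). The acetylcholinesterase gene Ache (0.91, SE 0.13) and the choline transporter-like gene Slc44a1 (0.79, SE 0.17) also rose in the authors' deposited table. Of the 7 acetylcholine genes listed, 3 rose and 0 fell. The 3 are among the 5 predicted to encode membrane or secreted proteins, and the other 2, Chat among them, are not so predicted.

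**Figure D3:**
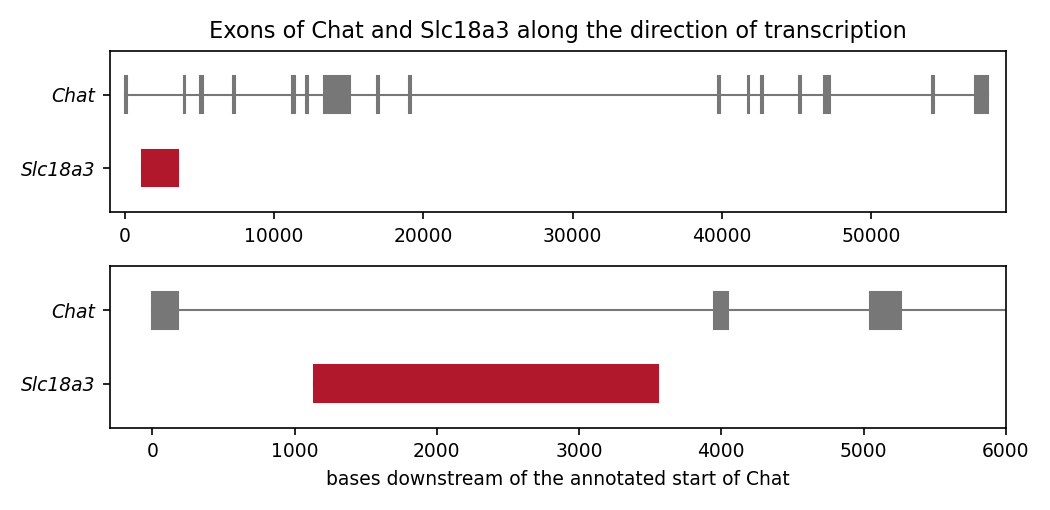
Annotated exons (boxes) of Chat (grey) and Slc18a3 (red) in GENCODE M21, against distance in bases downstream of the annotated start of Chat; the lower panel enlarges the region around the start. The single exon of Slc18a3 begins 1139 bases downstream and shares 0 bases with exons of Chat.

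Monoamine genes gave little to compare with Slc18a2. Th, the tyrosine hydroxylase gene of dopamine synthesis, had a mean of 409 in the authors' deposited table and a log2 difference of 0.17 there (SE 0.28, adjusted p = 0.834). The level of Th stood 74.3-fold above that of Slc18a2 per kb of exon and 34.9-fold above it per kb of coding sequence. Ddc, which encodes the decarboxylase of dopamine and serotonin synthesis, had a mean of 49.9 and a log2 difference of 0.74 (SE 0.46), and Tph2, of serotonin synthesis, a mean of 27.4 and a difference of -1.18 (SE 0.62) in the authors' deposited table. Neither passed, with adjusted p of 0.376 and 0.247 there. The plasma membrane transporter genes Slc6a3 and Slc6a4 were not analysed here. Of 9 tested monoamine genes 1 rose and 0 fell, and their median log2 fold change was -0.23.

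Among the other carriers, Slc17a5 was called in the SLC17 and SLC18 families, and the other calls were of vesicle proteins outside them. In the SLC17 family, Slc17a5, which encodes the lysosomal and vesicular carrier sialin, had 0.68 in the authors' deposited table (SE 0.19, adjusted p = 0.00425). Slc17a9, the gene of the vesicular nucleotide transporter, had a mean of 9.45 and no adjusted p there. In the SLC18 family, the polyamine carrier gene Slc18b1 reached 0.42 on the log2 scale of the authors' deposited table and was not called (SE 0.18, adjusted p = 0.113). Of 7 tested carriers among 13 listed, which also held the synaptic vesicle zinc transporter gene Slc30a3 and the Sv2 genes, 5 rose and 0 fell. All 7 are predicted to encode membrane or secreted proteins, and 44.1% of all tested genes so predicted were called higher. Sv2c (0.98, SE 0.19) and Slc10a4 (0.85, SE 0.24), a vesicle protein of cholinergic and monoamine neurons, were highest and Sv2a (0.49, SE 0.16) was lowest of those called in the authors' deposited table. Slc17a1, Slc17a2, Slc17a3, Slc17a4 and Slc18a1 were not analysed here.

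The V-ATPase, the proton pump that powers all 6 transporters, was split by its parts. Of 7 tested genes of V0, the membrane-bound part, 2 rose and 0 fell (median log2 fold change 0.34), and both accessory membrane subunits rose (Atp6ap1 and Atp6ap2). Of 9 genes of V1, the part in the cytosol, 0 rose and 2 fell, and their log2 fold changes ran from -0.39 to -0.06. The highest in the authors' deposited table were Atp6ap2 (1.06, SE 0.18) and Atp6v0b (1.02, SE 0.15), and the lowest were Atp6v1d (-0.39, SE 0.13, adjusted p = 0.0196) and Atp6v1g2 (-0.39, SE 0.13, adjusted p = 0.0212). Of the V0 genes, 6 of 7 are predicted to encode membrane or secreted proteins, as are the 2 accessory genes, but 0 of the 9 V1 genes. Among all tested genes so predicted, 44.1% were called higher and the median log2 fold change was 0.56.

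Genes of other proteins of the vesicle and of release were listed with and without a membrane span, and the difference between the lists was not tested. Of 15 genes of vesicle membrane proteins, 11 rose and 0 fell, with a median log2 fold change of 0.63. Sv2a, Sv2b and Sv2c stand in this list and in that of the carriers, so the calls of Sv2a and Sv2c are counted in both. Vamp2, which encodes a membrane-anchored fusion protein, was at -0.24 in the authors' deposited table and was not called. Syngr3, of the synaptogyrin family, had 0.99 (SE 0.14) and the calcium sensor gene Syt1 had 0.51 (SE 0.17) in the authors' deposited table. Of 13 genes of synaptic vesicle and release proteins listed as lacking a membrane span, of which Dnajc5 met the segment rule for membrane and secreted proteins, 0 rose and 0 fell at the authors' adjusted p from DESeq2, with 2 at an unadjusted p under 0.05. Those 2 were the synapsin gene Syn1, at -0.33 (SE 0.12, adjusted p = 0.0506), and Doc2a, at -0.44 (SE 0.17, adjusted p = 0.0766), by the authors' deposited table.

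All 6 vesicular transporters encode proteins with many membrane spans, and the position of the 5 that rose was therefore read against genes of that kind. Membrane and secreted proteins were predicted from the longest coding sequence, by an average Kyte-Doolittle hydropathy of 1.9 or more over any 19 residues, or of 2.2 or more over 12 residues near the start (residues 1 to 40). All 6 transporters met the rule. Among the 3843 tested coding genes that met it, 44.1% were called higher and 0.156% lower, and the median on the log2 scale was 0.56. Among the 10046 that did not, 2.75% were called higher and 1.5% lower, around a median of -0.06. The log2 fold change of Slc18a3 lay above 88.4% of the 3843 genes, that of Slc17a7 above 72.8%, of Slc17a8 above 68.7%, of Slc32a1 above 66.5%, and of Slc17a6 above 63.0%.

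With the median of a gene's own class subtracted from its fold change, 0 of the 6 transporters passed. That median was 0.56 for genes that met the rule, -0.06 for the other coding genes and -0.13 for genes without a coding sequence. Slc18a3 was then at 0.48 (adjusted p = 0.277, Wald test with the authors' SE, Benjamini-Hochberg over all tested genes) and the other 4 that had risen were between 0.14 and 0.25. The class was noticed in these data, so the subtraction is a description of where the transporters stand and not an independent test. Of 198 tested genes of other solute carriers outside the mitochondrial SLC25 family, 58.6% were called higher (median 0.70 on the log2 scale), and of 40 SLC25 genes 0 were called higher or lower.

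**Figure D4:**
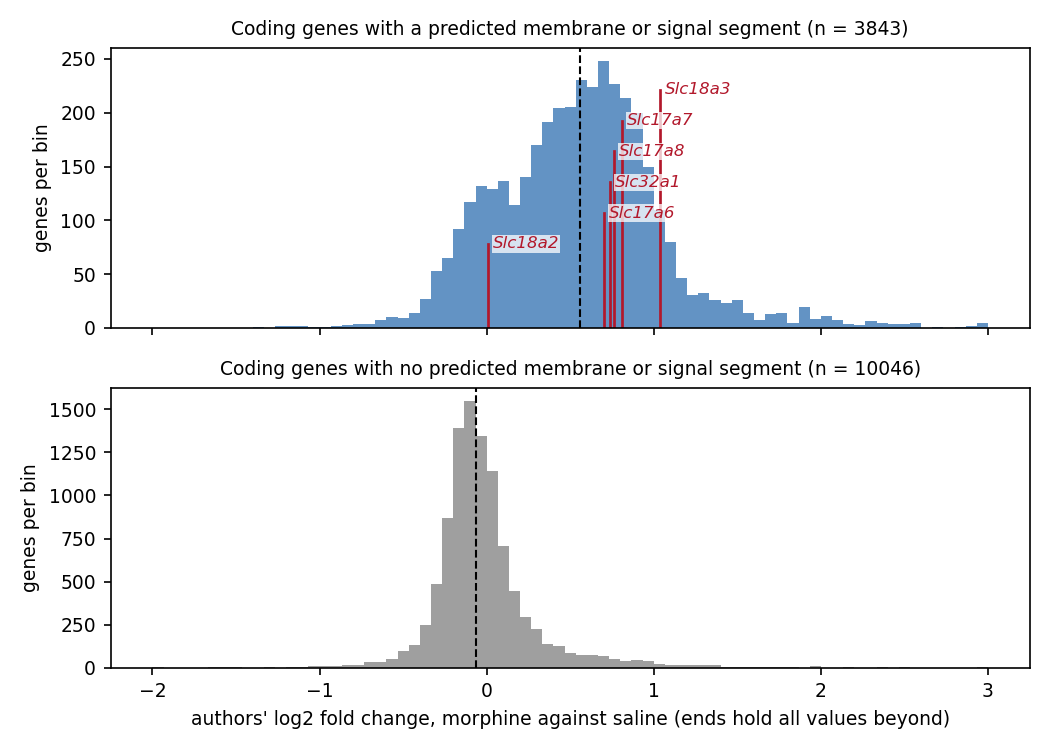
Number of tested coding genes per bin of the authors' log2 fold change, for the 3843 genes with a predicted membrane or signal segment (upper) and the 10046 without (lower); dashed lines are the medians, 0.56 and -0.06, and red lines mark the vesicular transporters. Slc17a6, Slc32a1, Slc17a8, Slc17a7 and Slc18a3 lie to the right of the upper median, and Slc18a2, at 0.01, to its left.

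Markers of the neurons that use each transporter were set beside it. For Slc17a7, 12 markers of cortical projection neurons were all measured, with means from 96.3 to 10909. The transcription factor genes Tbr1 and Neurod2, best known from cortex, stood at 1988 and 2065 normalised counts per kb of exon, and the part of cortical RNA in the level of Slc17a7 was not tested. Of the 12, 1 rose and 0 fell, and 8 were below 0. The 1 was Lamp5, which encodes a membrane protein, at 0.57 (SE 0.18) in the authors' deposited table. Tbr1 was at -0.23 in the authors' deposited table (SE 0.17, adjusted p = 0.472), 1.04 below Slc17a7 in log2 fold change (95% interval of the difference 0.57 to 1.51). Slc17a7 has a predicted segment and Tbr1 has none. The 10 cortical markers without a segment had a median of -0.21 and 0 rose. The 2 with one had a median of 0.35 and 1 rose.

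For Slc17a6, 5 of 10 thalamic markers rose and 0 fell, with a median log2 fold change of 0.80. In the authors' deposited table the transcription factor genes Tcf7l2 (2.42, SE 0.70) and Shox2 (2.19, SE 0.27) were highest, and Plekhg1 (1.51, SE 0.23) and Slitrk6 (1.07, SE 0.37) lowest of those called. The SE of Tcf7l2 was 4.09 times the median SE of the 200 genes nearest to it in mean. Of the 5 that rose, 4 are among the 9 with no predicted segment, whose median was 0.52. Over all tested coding genes without one, 2.75% were called higher, and over all tested genes 11.8%. The summed mean of the thalamic list was 14207, of which 11064 came from Rora, a gene also made in other neurons. The part of thalamic RNA in the change of Slc17a6 was not tested.

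For Slc18a3 and Slc17a8, 4 of 10 markers of striatal cholinergic interneurons rose and 0 fell. Among the 4 were the neurotrophin receptor gene Ngfr (1.39, SE 0.51), the protease gene Ecel1 (1.08, SE 0.19) and Slc5a7 (0.78, SE 0.16) in the authors' deposited table, and all 4 have a predicted segment. The other 6 have none, and their median log2 fold change was -0.22. The transcription factor genes Lhx8 (-0.16, SE 0.25) and Isl1 (-0.27, SE 0.18) belonged to these 6, with values from the authors' deposited table. The 95% interval of Slc18a3 minus Lhx8 on the log2 scale ran from 0.53 to 1.87. Chat and Slc5a7 also stand in the list of acetylcholine genes, so the call of Slc5a7 is counted in both. Gbx2 stands in this list and the thalamic one, and Lhx6 in this list and that of GABA interneurons, and neither was called.

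For Slc32a1, 13 markers of striatal projection neurons, the main cell type of the labelled tissue, had means from 2813 to 183436. Of these 6 rose and 0 fell, among them Tac1 (1.14, SE 0.17), Pdyn (1.05, SE 0.13) and Drd1 (0.70, SE 0.13) in the authors' deposited table. Penk (1.05, SE 0.19) was also among the 6 there. Drd2 (0.35, SE 0.13) and Adora2a (0.25, SE 0.13) were not called in the authors' deposited table. The 9 with a predicted segment had a median of 0.70 and the 4 without one had -0.10. Of 10 GABA interneuron markers 4 rose and 0 fell, which were Vip (0.79, SE 0.22), Kit (0.69, SE 0.21), Npy (0.58, SE 0.15) and Sst (0.57, SE 0.16) in the authors' deposited table. All 4 are among the 6 of this list with a predicted segment (median 0.58), and the 4 without one had a median of -0.01.

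For Slc18a2, 4 markers of midbrain dopamine neurons and 3 of serotonin neurons were tested. Ret rose (1.07, SE 0.37) and Nr4a2 fell (-0.54, SE 0.16) in the authors' deposited table, and both are also made outside dopamine neurons. None of the serotonin markers passed at the authors' adjusted p from DESeq2, and 0 had an unadjusted p under 0.05. Dopamine and serotonin markers that define those cells, such as Pitx3 and Fev, were not analysed here, and the tested genes are 4 of 10 listed for dopamine neurons and 3 of 8 for serotonin neurons. Th, Ddc and Tph2 stand in these lists and in that of the monoamine genes.

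Most glial markers rose as well, and their changes were not tested against those of the transporters. Of 9 astrocyte markers 7 rose (median log2 fold change 1.52, means from 31.1 to 744), from Slc7a10 (2.34, SE 0.64) to Gfap (1.42, SE 0.23) in the authors' deposited table. Of 9 oligodendrocyte markers 7 rose (log2 fold changes of all 9 from 0.65 to 1.97, means from 98.3 to 10202), from Cldn11 (1.97, SE 0.19) to Mbp (0.65, SE 0.14) in the authors' deposited table. Of 6 microglia markers 5 rose (median 2.39, means from 23.2 to 150), from Cx3cr1 (2.88, SE 0.40) to P2ry12 (2.14, SE 0.49) in the authors' deposited table. Of the markers with a predicted segment, 6 of 6 rose in the astrocyte list, 4 of 5 in the oligodendrocyte list and 5 of 5 in the microglia list. Of those without one, 1 of 3, 3 of 4 and 0 of 1 rose, with median log2 fold changes of 0.57, 0.82 and 0.02. Slc1a3 stands in the astrocyte list and in that of glutamate supply, so its call is counted in both. The part of glial RNA in the change of the transporters was not tested.

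**Figure D5:**
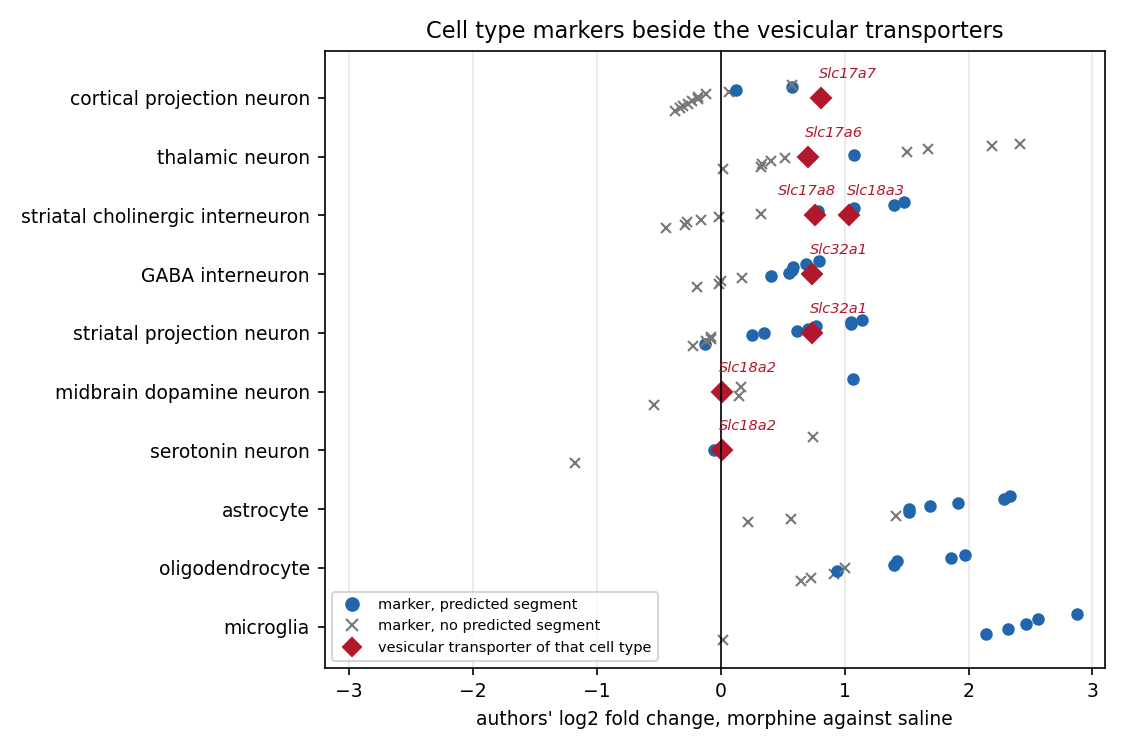
The authors' log2 fold change of every tested marker of each cell type, as circles for genes with a predicted segment and crosses for genes without, beside the vesicular transporter that such cells use (red diamonds). Slc17a7, at 0.81, stands to the right of all 12 cortical markers, of which 10 have no predicted segment. Slc17a6, at 0.70, lies within the range of the thalamic markers, 0.02 to 2.42.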

How the data were processed

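The authors sequenced RNA of 6 libraries, 3 per group, and only their comparison table, of 4 sheets, was analysed. Per the submitters' processing notes, the tools were STAR 2.6.1d and DESeq2 1.20.0, with the build named both GRCm38 and mm10. No source used here gives the read counter, the annotation, the model or the libraries fitted, and the term RM-out in the table's title is not explained. The deposited mean level is a signal, counts divided by size factors and averaged by the authors. Fold changes and SEs were deposited on the log2 scale. The deposited Wald score is the authors' fold change over its SE. The authors' p-values are deposited with their Benjamini-Hochberg adjustment, and repeating it over the 17279 genes gave the deposited values.

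Identifiers were matched to GENCODE M21 (GRCm38), and all 18732 were found. Intervals are the log2 fold change with normal 95% bounds from its SE, and levels were divided by merged exon length. Lists were described by counts and medians, without a list test. The genes followed and all lists were chosen with earlier results of these data known. Named are the 6 transporters, key enzymes and transporters of each transmitter, the rest of SLC17 and SLC18, and from every list up to 2 called genes at either end, or those of smallest p if none passed. Some genes that this rule names are not reported here. Oprm1, Atp6ap1, Slc30a3, Tbr1, Neurod2, Rora, Lhx8, Isl1, Penk, Drd2 and Adora2a were added after values were seen. The differences between a transporter and its enzyme or marker were also added then. The promoter sequences are from RefSeq. The calling step was tested on simulated data, drawn with the authors' SEs and with 200 genes changed. At log2 changes of 0.5, 1 and 2 it recovered 21%, 67% and 89.5% of the changed genes. False calls were 6.67%, 5.63% and 8.67% of all calls. The levels, the class subtraction and the lists were not part of that simulation. It changed 200 of 17279 genes, whereas the authors' deposited table holds 2036 called higher and 347 called lower. The recovery rates therefore need not hold for that table. The SEs were taken as exact, so the simulation could not test them. Software was Python (3.11.15) with matplotlib (3.10.9), Biopython (1.88), scipy (1.17.1), pandas (2.3.3) and numpy (2.4.6).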

Additional observations from a re-analysis of the deposited data

How the results depend on the processing

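The count of 5 vesicular transporters called higher was also 5 at an adjusted p below 0.01 or 0.1, with adjustment over genes with a mean of at least 100 or over all genes with a p, and with the median of all tested genes subtracted. It was 1 with Bonferroni adjustment, where Slc32a1 passed and Slc17a7 (0.81, adjusted p = 0.0554), Slc17a6 (0.70), Slc17a8 (0.76) and Slc18a3 (1.04) did not. It was 0 with the median of the protein class subtracted, which left Slc17a7 at 0.25, Slc17a6 at 0.14, Slc17a8 at 0.20, Slc32a1 at 0.18, Slc18a3 at 0.48 and Slc18a2 at -0.55, a change of sign. With tail-anchored proteins and mitochondrial families in neither class, chosen after seeing the data, it was also 0, and the values were 0.23, 0.12, 0.18, 0.15, 0.45 and, for Slc18a2, -0.58. By coding length or by no length, Slc17a6 ranked 4 and Slc18a3 ranked 5 in level, in place of 5 and 4. The share of segment genes called higher stayed within 1.5 times of 44.1% under the other window settings. Leaving out a library was not run, because the table holds no value per library. No paired analysis was possible because the table holds no value per library. Depth per library is unknown, and the mean of Slc18a2 limits what its comparison can show.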
